A study of Homo sapiens with 12 samples.

Results

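The 9 mRNAs described here encode enzymes of mitochondrial fatty acid oxidation: CPT1A, CPT2, ACADVL, ACADM, HADHA, HADHB, HADH, ETFA and ETFDH. They were taken by symbol from the 57353 rows of the deposited count table. Each of the 9 symbols matched 1 row, and 9 of 9 passed the filter on low counts that left 14955 rows for testing. The data come from HepG2, a line grown from a human liver tumour, with unmodified genotype per the labels. Cultures received 10 µM sorafenib, an inhibitor of several protein kinases used against liver cancer, or its solvent DMSO (vehicle) for 12 h. Ribosomes were arrested with cycloheximide in both arms, and each lysate was spread on a sucrose gradient. RNA was sequenced from a light pool, which joins the low-molecular peak, the free subunits and the single ribosomes, and from a polysome pool, where mRNAs carry several ribosomes. The 12 libraries form 4 groups of 3: vehicle light, sorafenib light, vehicle polysome and sorafenib polysome. They come from 6 numbered lysates, 3 per treatment, each normally from 2 joined dishes and called a culture here, and each gave 1 library per pool. The groups stand for 1 cell line at 1 dose and 1 time.

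Long-chain fatty acids enter mitochondria as carnitine esters and are then shortened from the carboxyl end. CPT1A forms the acylcarnitine on the outer membrane, a step that malonyl-CoA inhibits, and CPT2 turns it back into acyl-CoA inside. Each round of shortening needs an acyl-CoA dehydrogenase, a hydratase, a hydroxyacyl-CoA dehydrogenase and a thiolase. ACADVL serves very long and ACADM medium chains. HADHA and HADHB are the alpha and beta subunits of the trifunctional protein, which holds the last 3 activities for long chains, and HADH is the hydroxyacyl-CoA dehydrogenase for shorter chains. Electrons pass from the dehydrogenases to the flavoprotein ETF, of which ETFA is the alpha subunit, and from there through ETFDH to ubiquinone. In liver this pathway feeds ketone body synthesis during fasting.

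Library totals ran from 511065 to 13336689 counts, and sorafenib light-fraction libraries 2 (511065) and 1 (2060384) were the shallowest. The 9 mRNAs together took 0.0349% ± 0.00338 (SD, n = 3) of the counts in vehicle light, 0.0625% ± 0.00543 in sorafenib light, 0.0522% ± 0.00423 in vehicle polysome and 0.128% ± 0.00386 in sorafenib polysome libraries. Levels below are CPM, counts scaled to a fixed library total, after edgeR's TMM factors. They are shares of a library, so a change is relative to the other RNAs of that pool and not an amount. No unfractionated RNA is among the 12 libraries, so a shift onto polysomes and a higher total amount of an mRNA cannot be told apart. Fewer cells with an mRNA and less of it per cell cannot be told apart either. All 10 hepatocyte markers checked, among them ALB, AFP and HNF4A, had counts in every library. Their summed level was 6529 to 16512 CPM in the 6 vehicle libraries and 23111 to 36071 CPM in the 6 sorafenib libraries, and its part in the results was not tested. The sum is carried by abundant mRNAs such as ALB, and single markers differ: the mean of HNF4A was 107 CPM with vehicle and 66.1 with sorafenib in the light pool and 91.5 and 77.9 on polysomes. TTR was at 129 and 60.9 CPM on polysomes but at 38.7 and 150 CPM in the light pool. APOB was at 536 and 283 CPM in the light pool but at 478 and 947 CPM on polysomes. Over 9 markers of blood, vessel and connective tissue cells the sum was 2.92 to 3.82 CPM in vehicle light, 4.67 to 50.5 in sorafenib light, 2.70 to 6.38 in vehicle polysome and 2.35 to 3.32 in sorafenib polysome libraries. The highest of these, 50.5 CPM, rests on 27 counts in sorafenib light-fraction library 2, and its part in the results was not tested either. CD3E was at 0 in 9 libraries and KDR in 5.

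The upstream sequences of HADHA and HADHB are shown because the subunits of this one complex are encoded by neighbouring genes that start back to back, and because their mRNAs were placed differently in the gradient. In RefSeq (GRCh38.p14) their start sites lie 307 bases apart on chromosome 2, in opposite directions. The 250 bases before HADHA (chr2:26244633-26244882, minus strand) and before HADHB (chr2:26244689-26244938, plus strand) are given 5′ to 3′ on the strand of each gene. Capitals mark the 194 bases that both windows share, read from opposite strands.
HADHA: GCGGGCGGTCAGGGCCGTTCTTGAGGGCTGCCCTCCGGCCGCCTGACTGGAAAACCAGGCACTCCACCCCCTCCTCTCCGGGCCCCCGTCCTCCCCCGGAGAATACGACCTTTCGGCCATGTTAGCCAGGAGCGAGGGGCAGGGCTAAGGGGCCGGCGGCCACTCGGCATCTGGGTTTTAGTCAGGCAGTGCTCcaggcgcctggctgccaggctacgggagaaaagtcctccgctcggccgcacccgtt
HADHB: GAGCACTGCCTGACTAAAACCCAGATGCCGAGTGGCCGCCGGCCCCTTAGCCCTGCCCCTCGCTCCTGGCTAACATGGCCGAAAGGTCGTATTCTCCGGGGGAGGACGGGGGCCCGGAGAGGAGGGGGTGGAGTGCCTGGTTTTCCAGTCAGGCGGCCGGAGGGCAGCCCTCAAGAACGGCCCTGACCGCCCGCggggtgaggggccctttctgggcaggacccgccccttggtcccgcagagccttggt

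Upstream windows were listed for 8 of the 9 genes (10 windows, since ACADVL and HADH have 2 each), and not for ETFDH. Both strands of the 250 bases were searched. The GC box GGGCGG was in 7 of 10 windows, against 42.6% of 35116 RefSeq windows, and CCAAT was in 2 (HADH and ETFA), against 32.01%. The GC box of HADHA lies in the bases shared with HADHB, so that 1 site counts in 2 windows. None of the 10 held the nuclear receptor core element AGGTCA (12.1% of all windows), and so none held the PPAR direct repeat, 2 such elements with 1 base between them (0.0171%), or the estrogen-related receptor element TCAAGGTCA (0.319%), which contain it. TGATGNAA, the element of ATF and C/EBP dimers (3.14%), and the E box CACGTG (6.35%) were in none of the 10 either. A start site with C followed by 4 pyrimidines, the mark of terminal oligopyrimidine mRNAs, was annotated for HADH alone, against 4.07% of all windows. These are matches of letters in a short window and say nothing of what binds there.

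The comparison of polysome libraries asked which of these mRNAs changed their share of polysome RNA under sorafenib. HADHA, ACADVL, HADHB, HADH, ACADM and CPT2 rose, and CPT1A, ETFA and ETFDH did not pass the test. The rises ran from 1.82-fold for CPT2 to 4.71-fold for HADHA, and in each of the 6 the sorafenib libraries lay above the vehicle libraries without overlap (25.3% of all tested genes did so, and 35% lay lower without overlap, as 0 of the 9 did). Called by edgeR at an adjusted p under 0.05 were 6 of 9 as higher and 0 as lower, also 6 and 0 at an unadjusted p under 0.05. Of all 14955 genes 20.9% rose and 28.8% fell, 49.7% together. At an unadjusted p under 0.05, 3498 of the 14955 were higher and 4897 lower. The median log2 fold change of the 9 was 1.00, and that of all tested genes was -0.26. With TMM factors set within the pool that median was -0.03, and the share of rises among all calls went from 42.1% to 55.5%, with the same 6 members counted as rising. DESeq2 also gave 6 rises and 0 falls, against 3357 and 3974 of all 14955 genes. Both shallow sorafenib light-fraction libraries belong to the shared fit only. Without them the median of the 9 was 1.27 and that of all genes was -0.04.

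The same comparison in the light pool gave a different set. ETFA, HADHB and CPT2 rose, by 2.34-fold, 1.95-fold and 2.19-fold, and the other 6 did not pass the test. Their sorafenib libraries lay above the vehicle libraries without overlap (15% of all tested genes did so). Of all tested genes 11.7% rose and 17.7% fell, 29.4% together, and 24.6% lay lower without overlap, as 0 of the 9 did. At an unadjusted p under 0.05 edgeR had 4 of the 9 higher and 0 lower, and DESeq2 called 4 higher and 0 lower. Over all 14955 genes the unadjusted counts were 2521 and 3602, and the DESeq2 calls 2202 and 2469. The median was 0.41 for the 9 and -0.12 for all genes. The counts behind the sorafenib light libraries are small for several members, down to 9 for ACADM in library 2 and 6 for ETFDH in library 1. Without a low-count filter the calls for HADHB (0.84, adjusted p = 0.0978) and CPT2 (0.95, adjusted p = 0.118) were lost, which left ETFA. With library totals as the scale the share of rises among all light-pool calls went from 39.8% to 73.5%.

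**Figure D1:**
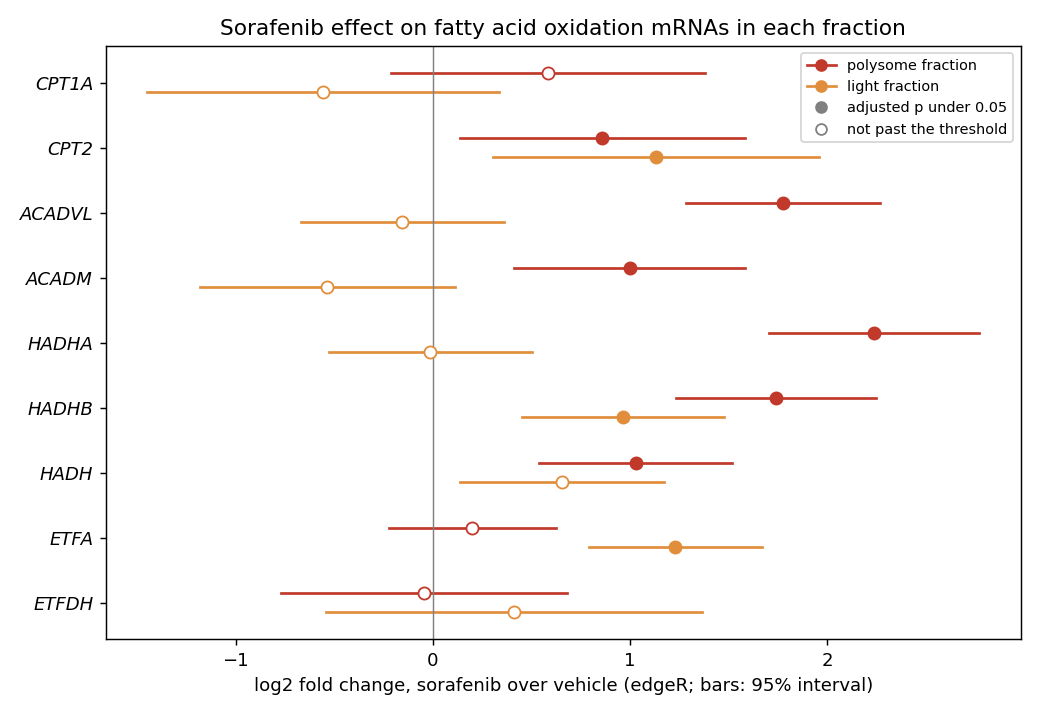
Log2 fold change of each enzyme mRNA, sorafenib over vehicle, in the polysome pool (red) and the light pool (orange), with 95% intervals from the edgeR fit and filled points where the adjusted p was under 0.05. HADHA, ACADVL, ACADM and HADH have filled points on the polysome side only, ETFA on the light side only, and CPT2 and HADHB on both.

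Among the carnitine enzymes, CPT1A was not called in either pool. Its levels were 44.9, 43.7 and 28.4 CPM in the vehicle light libraries and 29.4, 35.5 and 20.1 CPM in the sorafenib light libraries. On polysomes they were 15.6, 52.6 and 13.3 CPM with vehicle and 30.2, 44.7 and 44.7 CPM with sorafenib. Vehicle polysome library 2 stood far above the other two of its group and above all sorafenib libraries. The log2 fold change was 0.58 ± 0.38 on polysomes (SE, n = 3 per group, edgeR adjusted p = 0.209) and -0.56 ± 0.43 in the light pool (adjusted p = 0.342), with a 95% interval of -0.21 to 1.38 for the first. Without vehicle polysome library 2 the polysome value was 1.46 (adjusted p = 7.79e-04). It also passed without a low-count filter (1.00, adjusted p = 0.0131).

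CPT2 was a low-count mRNA, with 11 to 148 counts per library, and its highest levels were in the sorafenib light pool. It stood at 6.84, 6.95 and 3.53 CPM in vehicle light and 16.4, 20.6 and 7.01 CPM in sorafenib light libraries. The polysome levels were 4.24, 3.37 and 3.80 CPM with vehicle and 6.41, 8.48 and 6.00 CPM with sorafenib. Within each pool the sorafenib libraries lay above the vehicle ones, by a narrow gap in the light pool. The rise was 0.86 ± 0.35 on polysomes (SE, edgeR adjusted p = 0.0458) and 1.13 ± 0.40 in the light pool (adjusted p = 0.0373). Both calls were fragile. On polysomes the adjusted p was 0.0672, 0.111 and 0.0889 without vehicle polysome libraries 1, 2 and 3, and 0.075, 0.155 and 0.0593 without sorafenib polysome libraries 1, 2 and 3. In the light pool it was 0.0951 without vehicle light library 3, 0.152 and 0.0589 without sorafenib light libraries 1 and 2, and 0.538 (log2 fold change 0.41) without both of these, and 0.0558 with only the 2 light groups in the fit. CPT2 overlaps the gene CZIB, which has 3243 counts over the 12 libraries against 623 for CPT2, and it is not known whether reads were assigned by strand.

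The acyl-CoA dehydrogenases ACADVL and ACADM shared a pattern: polysome levels were higher with sorafenib, and light-pool levels were not. ACADVL was at 50.0, 50.0 and 68.1 CPM in vehicle light, 55.2, 39.3 and 52.5 CPM in sorafenib light, and 50.1, 40.4 and 69.6 CPM in vehicle polysome libraries. In the sorafenib polysome libraries it was at 182, 200.3 and 168 CPM. The first 3 groups overlapped, and the fourth stood clear of all of them. The polysome rise was 1.78 ± 0.24 (SE, edgeR adjusted p = 1.14e-05), and the light-pool value was -0.15 ± 0.25 (adjusted p = 0.667, 95% interval -0.67 to 0.36), whose sign turned with library totals as the scale.

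ACADM was at 36.6, 37.3 and 32.8 CPM in vehicle light and 14.7, 16.8 and 36.0 CPM in sorafenib light libraries. On polysomes it was at 22.9, 16.8 and 34.1 CPM with vehicle and 47.5, 54.3 and 46.7 CPM with sorafenib. The sorafenib light group was split, with libraries 1 and 2 (25 and 9 counts) far below library 3 (154 counts). The polysome rise was 1.00 ± 0.28 (SE, edgeR adjusted p = 0.00663), and the light-pool value was -0.54 ± 0.31 (adjusted p = 0.200). The polysome adjusted p was 0.0511 without vehicle polysome library 2. The light-pool value became -1.23 (adjusted p = 0.0132) without sorafenib light library 3 and 0.17 (adjusted p = 0.738) without libraries 1 and 2, so its direction depended on which of the 3 were kept.

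**Figure D2:**
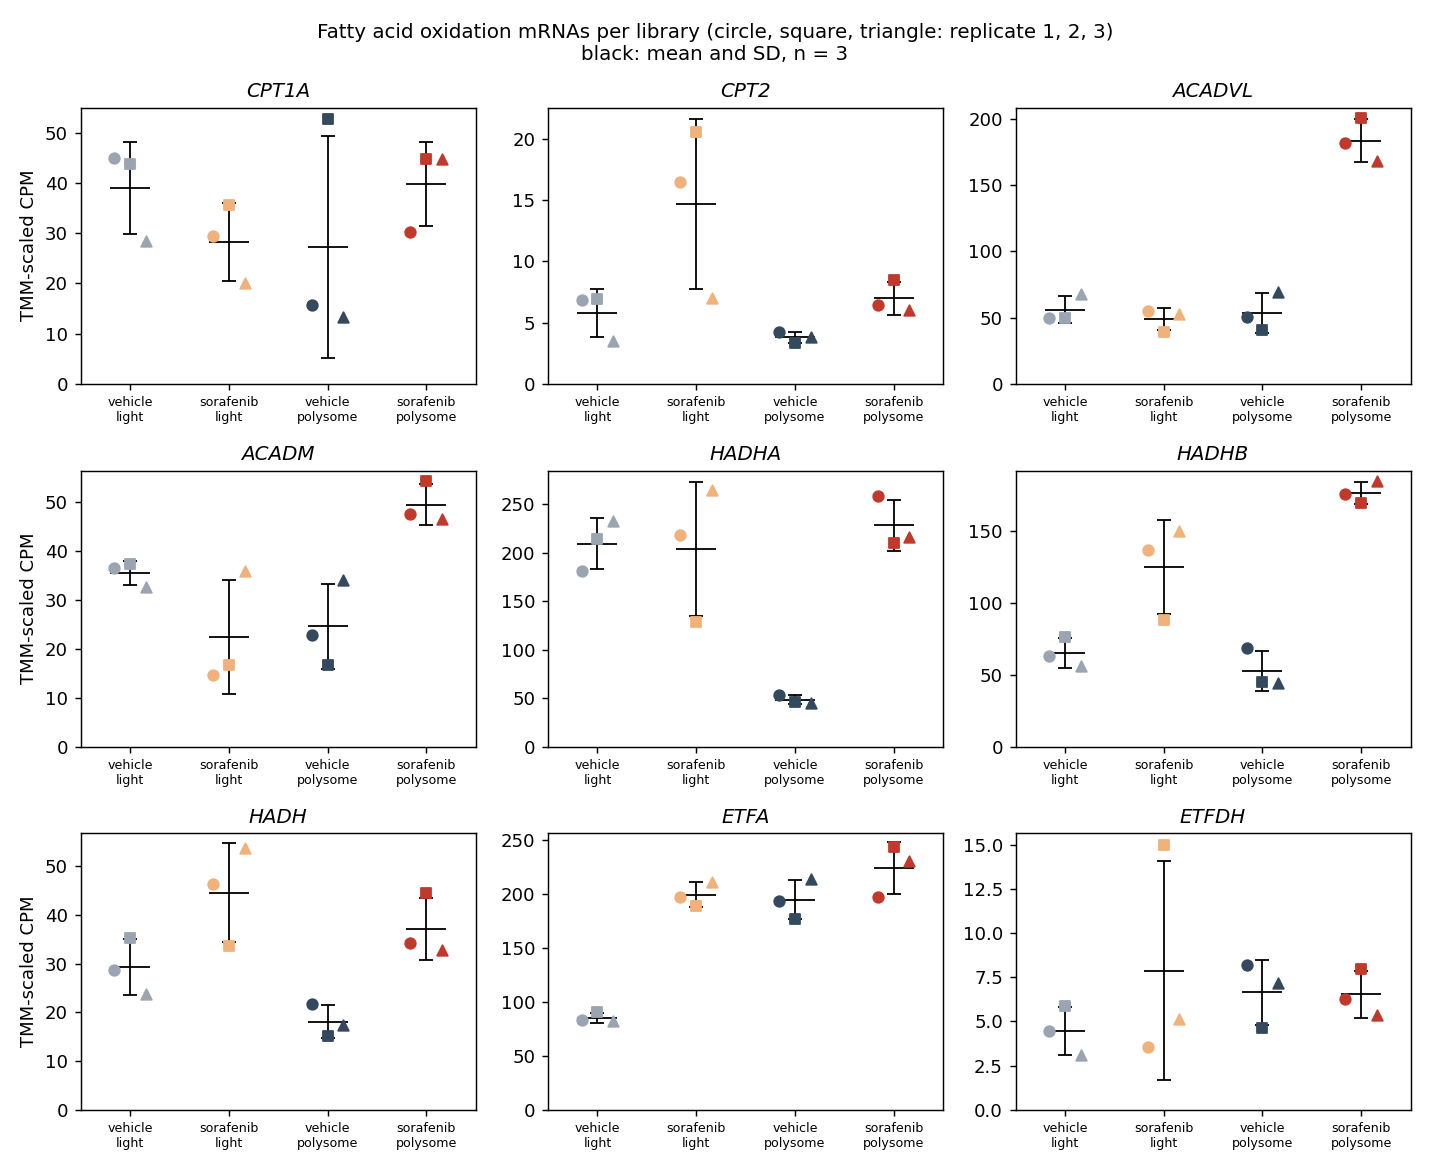
TMM-scaled CPM of each of the 9 mRNAs in each of the 12 libraries, with the mean and SD of each group of 3 in black and all axes from 0. ACADVL at 168 to 200.3 CPM in sorafenib polysome libraries and HADHA at 45.6 to 53.8 CPM in vehicle polysome libraries are the groups that stand apart most from the rest of their panel.

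HADHA and HADHB, the subunits of the trifunctional protein, both rose on polysomes, from vehicle means of 48.4 and 52.6 CPM. Their vehicle light means were 210 and 65.1 CPM, and no test compared the 2 genes. HADHA was at 182, 215 and 233 CPM in vehicle light and 219, 129 and 265 CPM in sorafenib light libraries. On polysomes it was at 53.8, 45.9 and 45.6 CPM with vehicle and 258, 211 and 216 CPM with sorafenib. The vehicle polysome group was low and tight, and the other 3 groups overlapped at 129 to 265 CPM. The polysome rise was 2.24 ± 0.25 (SE, edgeR adjusted p = 2.83e-06), and the light-pool value was -0.01 ± 0.25 (adjusted p = 0.972, 95% interval -0.53 to 0.50), with a sign that depended on the scaling.

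HADHB was at 63.2, 76.0 and 56.0 CPM in vehicle light and 68.5, 45.0 and 44.4 CPM in vehicle polysome libraries. With sorafenib it was at 136, 87.9 and 149.9 CPM in the light pool and 175, 169 and 184 CPM on polysomes. Both sorafenib groups lay above both vehicle groups. The rise was 1.74 ± 0.24 on polysomes (SE, edgeR adjusted p = 1.87e-05) and 0.96 ± 0.24 in the light pool (adjusted p = 0.00639). The count ratio of HADHA to HADHB within a library does not depend on the scaling, and only its change between groups has meaning, since lengths differ. It was 2.88, 2.82 and 4.16 in vehicle light, 1.61, 1.47 and 1.77 in sorafenib light, 0.784, 1.02 and 1.03 in vehicle polysome and 1.48, 1.25 and 1.17 in sorafenib polysome libraries. The gap between light and polysome ratios was wide with vehicle and narrow with sorafenib. This ratio was chosen after the values were seen and was not tested. The pseudogene rows HADHAP1 and HADHAP2 held 16 and 60 counts over the 12 libraries against 17265 for HADHA.

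HADH was at 28.6, 35.3 and 23.9 CPM in vehicle light and 46.4, 33.7 and 53.7 CPM in sorafenib light libraries. On polysomes it was at 21.8, 15.1 and 17.5 CPM with vehicle and 34.3, 44.5 and 32.8 CPM with sorafenib. The polysome groups were apart, and the light groups overlapped through library 2 of each. The polysome rise was 1.03 ± 0.23 (SE, edgeR adjusted p = 0.00146). The light-pool value was 0.65 ± 0.25 (adjusted p = 0.0527), just short of the threshold, and it passed with RLE scaling (0.71, adjusted p = 0.0373), with DESeq2 (adjusted p = 0.0276) and without sorafenib light library 2 (0.90, adjusted p = 0.0128).

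ETFA rose in the light pool and did not pass the test on polysomes. It was at 82.9, 90.4 and 82.2 CPM in vehicle light and 197, 189 and 211 CPM in sorafenib light libraries. On polysomes it was at 194, 177 and 213 CPM with vehicle and 197, 244 and 230.2 CPM with sorafenib. Only the vehicle light group was low, and the other 3 overlapped. ETFA was higher by 1.23 ± 0.21 in the light pool (SE, edgeR adjusted p = 3.63e-04), while the polysome value was 0.20 ± 0.20 (adjusted p = 0.425, 95% interval -0.22 to 0.62). Without sorafenib light library 2, which enters the polysome comparison only through the filter, the scaling and the shared spread, the polysome value was 0.44 (adjusted p = 0.043).

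ETFDH had the fewest counts in the sorafenib light pool, 6, 8 and 22, and no call in any of the treatment comparisons. It was at 4.45, 5.85 and 3.11 CPM in vehicle light, 3.52, 14.96 and 5.14 CPM in sorafenib light, 8.16, 4.61 and 7.18 CPM in vehicle polysome and 6.26, 7.97 and 5.37 CPM in sorafenib polysome libraries. All 4 groups overlapped with the next in level. The polysome value was -0.05 ± 0.35 (SE, edgeR adjusted p = 0.923, 95% interval -0.77 to 0.68), with a sign that depended on the scaling, and the light-pool value was 0.41 ± 0.46 (adjusted p = 0.522). ETFDH overlaps PPID, which has 4014 counts against 642 for ETFDH.

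ETFB, the beta subunit that pairs with ETFA, rose in the light pool and fell on polysomes. It was at 298, 348 and 514 CPM in vehicle light and 1693, 1739 and 954 CPM in sorafenib light libraries. On polysomes it was at 1625, 3279 and 2658 CPM with vehicle and 1322, 1158 and 1050 CPM with sorafenib. The groups were apart in both pools and in opposite directions, as they also were for the thioesterase ACOT8, described below. ETFB rose by 1.92 ± 0.33 in the light pool (SE, edgeR adjusted p = 3.89e-04) and fell by 1.10 on polysomes (SE 0.32, adjusted p = 0.0086). The interaction for ETFB was -3.02 ± 0.46 (adjusted p = 1.92e-04).

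Whether the sorafenib effect differed between the pools was tested as an interaction. It was positive, meaning a larger rise on polysomes, for HADHA (2.25 ± 0.35, SE, edgeR adjusted p = 2.18e-04), ACADVL (1.93 ± 0.34, adjusted p = 5.35e-04) and ACADM (1.53 ± 0.42, adjusted p = 0.0121). It was negative for ETFA (-1.03 ± 0.29, adjusted p = 0.0147). The other 5, CPT1A, CPT2, HADHB, HADH and ETFDH, did not pass, with values from -0.46 to 1.14. So 3 of 9 were called positive and 1 negative, against 12.8% and 10.7% of all tested genes, 23.6% together. The interaction shares its libraries with the comparisons above.

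The interaction calls for HADHA, ACADVL and ACADM held when any 1 library was left out. For ACADM the value was 1.10 without both shallow sorafenib light libraries, which leaves 1 in that group. For ETFA the call was lost without any of the vehicle light libraries 1, 2 and 3 (adjusted p = 0.162, 0.13 and 0.148), sorafenib light libraries 1 and 3 (0.0891 and 0.13), vehicle polysome library 3 (0.058), and sorafenib polysome libraries 1 and 3 (0.0858 and 0.0609). Its value stayed between -1.05 and -0.67 in those 12 refits. HADHB passed without sorafenib light library 3 (1.22, adjusted p = 0.0235) and without vehicle polysome library 1 (1.03, adjusted p = 0.0435). CPT1A passed with the culture as a replicate block (1.32, adjusted p = 0.0213), without a low-count filter (1.71, adjusted p = 0.00423) and without vehicle polysome library 2 (2.06, adjusted p = 0.00193).

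The comparison of the pools within a treatment asked where each mRNA sat. In vehicle cells the polysome level of HADHA was 0.231 times its light-pool level (log2 -2.11 ± 0.25, SE, edgeR adjusted p = 5.10e-06), HADH was lower by 0.69 on the log2 scale (-0.69 ± 0.24, adjusted p = 0.0294), and ETFA was higher (1.19 ± 0.21, adjusted p = 1.86e-04). The other 6 did not pass. Of all tested genes 18.3% were higher and 17.8% lower on polysomes, 36.1% together. Groups did not overlap for these 3 members, 1 higher and 2 lower, against 23.2% and 25.1% of all genes. In sorafenib cells ACADVL (1.87 ± 0.25, adjusted p = 4.80e-05) and ACADM (1.01 ± 0.31, adjusted p = 0.0206) were higher on polysomes, and HADHA was at 0.14 ± 0.25 (adjusted p = 0.724). By edgeR 0 of 9 were lower, with 1 (CPT2) at an unadjusted p under 0.05 and 0 by DESeq2. Over all 14955 genes 2732 were lower in these cells at an unadjusted p and 2333 by DESeq2. Of all tested genes 13.4% were higher and 12.4% lower there, 25.8% together. ACADVL, ACADM and HADHB (0.47, adjusted p = 0.160) lay higher without overlap, as 22.1% of all genes did, and 16.3% lay lower.

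Directions between pools rest on the TMM factors, which ranged from 0.637 to 1.41 and were lowest in the vehicle light libraries. Without those factors the median of all genes moved from -0.06 to 0.82 in vehicle cells and from 0.00 to 0.60 in sorafenib cells, and the share of calls that were higher on polysomes from 50.8% to 89.3% and from 51.9% to 85.9%. On that scale HADHA was still lower on polysomes in vehicle cells (-1.23), HADH was at 0.19, and ACADVL (0.83, adjusted p = 0.00389), HADHB (0.58, adjusted p = 0.0359) and ETFDH (1.45, adjusted p = 0.00494) were higher. In sorafenib cells the same scale put HADHA at 0.72 (adjusted p = 0.0118), HADHB at 1.06 (adjusted p = 0.00122), ETFA at 0.72 (adjusted p = 0.00774) and CPT1A at 1.17 (adjusted p = 0.0373), all past the threshold. Relative to the median of all genes HADHA in vehicle cells lay about 2 log2 units lower on either scale. The HADH call was lost without vehicle light libraries 1 and 2 (adjusted p = 0.101 and 0.255), vehicle polysome libraries 2 and 3 (0.132 and 0.0867), sorafenib light library 1 (0.0521) and sorafenib polysome libraries 1 and 3 (0.054 and 0.0517), without a low-count filter (-0.60, adjusted p = 0.338) and after thinning to 511065 counts per library (-0.96, adjusted p = 0.0848). In sorafenib cells ACADM lost its call without sorafenib light library 1 (0.90, adjusted p = 0.0695), without both shallow libraries (0.59, adjusted p = 0.258) and after thinning (0.96, adjusted p = 0.113). CPT1A in vehicle cells passed with the culture as a replicate block (-0.78, adjusted p = 0.0343), after thinning (-1.23, adjusted p = 0.0477) and without vehicle polysome library 2 (-1.43, adjusted p = 0.0014), and ACADM passed without vehicle polysome library 3 (-0.82, adjusted p = 0.0484). In sorafenib cells CPT2 (-1.03, adjusted p = 0.0413) and HADHB (0.95, adjusted p = 0.0167) passed without sorafenib light library 3. CPT1A (1.23, adjusted p = 0.00283) and HADHB (1.09, adjusted p = 0.00933) passed there without a low-count filter.

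Both pools of a culture came from 1 lysate, so the ratio of polysome to light level can be formed culture by culture (log2, after adding 1 CPM to each). For HADHA it was -1.74, -2.20 and -2.33 in vehicle cultures and 0.24, 0.70 and -0.29 in sorafenib cultures. For ACADVL it was 0.00, -0.30 and 0.03 with vehicle and 1.70, 2.32 and 1.66 with sorafenib. For ACADM it was -0.65, -1.10 and 0.05 with vehicle and 1.63, 1.63 and 0.37 with sorafenib. In these 3 mRNAs every sorafenib culture lay above every vehicle culture. ETFA went the other way, at 1.22, 0.96 and 1.37 with vehicle and 0.00, 0.36 and 0.12 with sorafenib. HADHB was at 0.12, -0.74 and -0.33 with vehicle and 0.36, 0.94 and 0.30 with sorafenib, again without overlap. CPT1A, CPT2, HADH and ETFDH had overlapping ratios. The share of all tested genes whose ratios were apart was not computed, so these separations have no background to be read against.

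**Figure D3:**
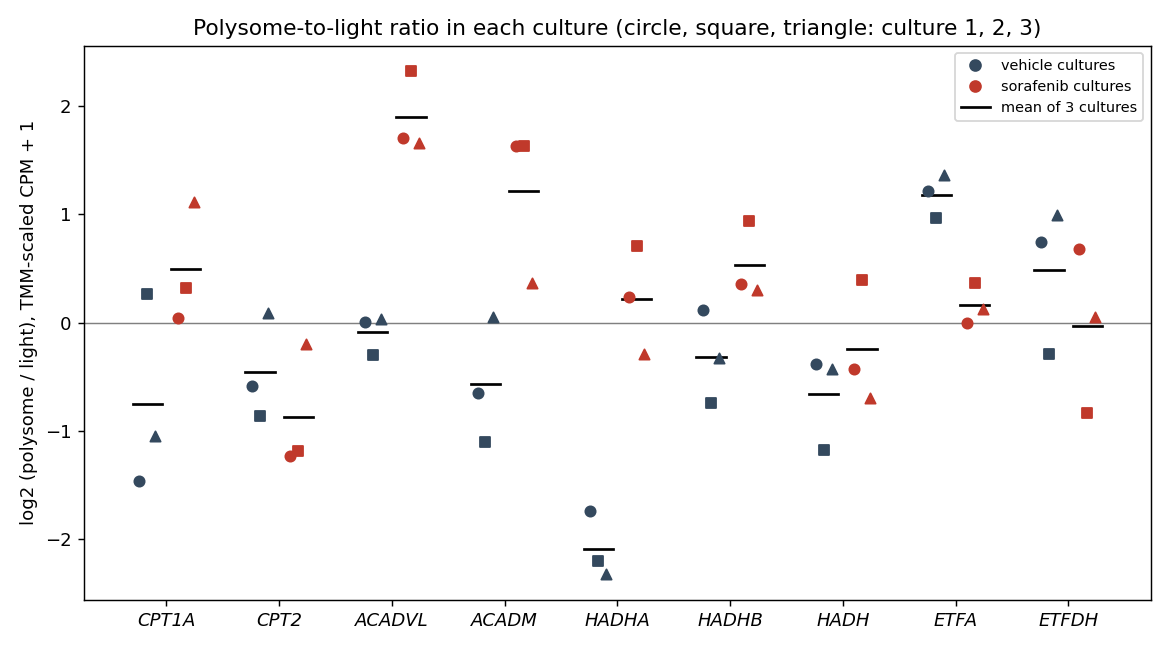
Log2 ratio of polysome to light level in each of the 6 cultures, vehicle in dark blue and sorafenib in red, with a bar at the mean of 3 cultures. HADHA is at -2.33 to -1.74 in vehicle cultures and -0.29 to 0.70 in sorafenib cultures, and ETFA is the mRNA whose ratios are lower in all sorafenib cultures without overlap.

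The order of the 4 groups thus differed between members. Sorafenib polysome was the highest group for CPT1A, ACADVL, ACADM, HADHA, HADHB and ETFA, and sorafenib light for CPT2, HADH and ETFDH. Vehicle polysome was the lowest for CPT1A, CPT2, HADHA, HADHB and HADH, sorafenib light for ACADVL and ACADM, and vehicle light for ETFA and ETFDH. The highest group mean was 1.47 times the lowest for CPT1A and 4.72 times for HADHA, with the other 7 in between. Neighbouring groups in these orders were apart at the top for ACADVL and ACADM, at the bottom for HADHA, HADH and ETFA, and at the upper 2 steps for HADHB. The other neighbours overlapped, and for CPT1A, CPT2 and ETFDH all 3 neighbouring pairs did. Such orders were not formed for all tested genes, so the separations within them have no background to be read against.

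A further 68 genes of the pathway and its surroundings were listed by role, and 61 were counted well enough to be tested. In the polysome comparison 24 of the 61 rose and 7 fell, with a median log2 fold change of 0.48 against -0.26 for all genes, of which 20.9% rose and 28.8% fell. In the light pool 13 rose and 6 fell, with a median of 0.36 against -0.12 for all genes, of which 11.7% rose and 17.7% fell. The counts by role below are to be read against these same shares. Those at an unadjusted p are to be read against the unadjusted counts of all genes given above. The lists share no gene with the 9. Falls on polysomes numbered 3 or 4 without vehicle light library 1, 2 or 3, sorafenib light library 1 or 3, vehicle polysome library 2 or sorafenib polysome library 3. Falls in the light pool numbered 2 without sorafenib light library 1. With library totals as the scale, where the light-pool median of all genes was 0.31, 27 of the 61 rose in the light pool and 2 fell.

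Fatty acid activation and the carnitine shuttle had 12 tested genes, of which 5 rose and 2 fell on polysomes. The acyl-CoA synthetases ACSL1 (1.67), ACSL4 (1.88) and ACSL5 (1.10) rose, and the fatty acid transport proteins SLC27A5 and SLC27A4 fell by 0.73 and 0.93 (log2 fold changes, edgeR). In light libraries 3 rose and 2 fell. SLC27A5 fell by 1.92, and carnitine acetyltransferase CRAT (1.44) and ACSL1 (1.08) rose. CPT1B, the muscle form of CPT1, fell by 2.05 ± 0.69 there (SE, adjusted p = 0.0313), with overlapping groups of 15.6, 11.5 and 29.3 CPM with vehicle and 1.17, 22.4 and 2.10 CPM with sorafenib. On polysomes CPT1B was at -0.63 (adjusted p = 0.359). The neuronal form CPT1C had 16 counts over the 12 libraries and was not tested.

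Of 14 other mitochondrial beta-oxidation genes tested, 6 rose and 2 fell on polysomes. The thioesterase ACOT2 had a log2 fold change of 2.88, and the acyl-CoA dehydrogenases ACAD11 and ACAD9 had 1.71 and 1.62. ETFB, described above, and the thioesterase ACOT13, by 1.32, fell. Light libraries had 4 rises and 1 fall. The short-chain dehydrogenase ACADS (1.59), the hydratase ECHS1 (1.68) and ETFB were among the rises. ACADL, the long-chain dehydrogenase, had 8 counts over the 12 libraries and was not tested.

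Peroxisomes shorten very long and branched chains with enzymes of their own, and 8 of 15 tested genes rose there and 1 fell on polysomes. The bifunctional enzyme HSD17B4 (2.42) and the acyl-CoA oxidase ACOX3 (1.76) rose, and the thioesterase ACOT8 fell by 0.95. HSD17B4 went from 17.8, 14.9 and 14.9 CPM to 80.5, 98.2 and 77.2 CPM on polysomes. In light libraries 5 rose by edgeR and 0 fell (1 was lower at an unadjusted p under 0.05). The rises included PECR (1.22), PHYH (1.19) and SCP2 (0.93). ACOT8, lower on polysomes, rose there by 0.71.

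Of 4 ketone body genes tested, 3 rose and 1 fell on polysomes and 0 of 4 passed by edgeR in the light pool, with 1 higher at an unadjusted p under 0.05. The thiolase ACAT1 (1.69) rose, and the dehydrogenase BDH1 fell by 0.79. Of 13 regulators 2 rose and 1 fell on polysomes. PRKAA1, a catalytic subunit of AMP kinase, had a log2 fold change of 1.39 and the deacetylase SIRT3 of 0.57. PPARA, the nuclear receptor that drives oxidation genes in liver, fell by 1.08 ± 0.28 on the log2 scale (SE, edgeR adjusted p = 0.00377), from 23.3, 21.1 and 9.80 CPM to 7.47, 7.56 and 10.4 CPM, with overlap through 1 vehicle library. Light-pool PPARA was at -0.81 (adjusted p = 0.0645). The coactivator PPARGC1A was at 0.23 (adjusted p = 0.622) on polysomes and -0.71 (adjusted p = 0.306) in the light pool. By edgeR 0 regulators rose in light libraries, also at an unadjusted p under 0.05, and 3 fell: the nuclear receptors ESRRA, by 1.62, and RXRA, by 0.73, and the AMP kinase subunit PRKAA2, by 1.11. Of 6 PPARA target genes outside oxidation 3 were tested, with 0 edgeR calls on polysomes (1 lower at an unadjusted p under 0.05) and a rise of FABP1 (1.73) in the light pool.

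**Figure D4:**
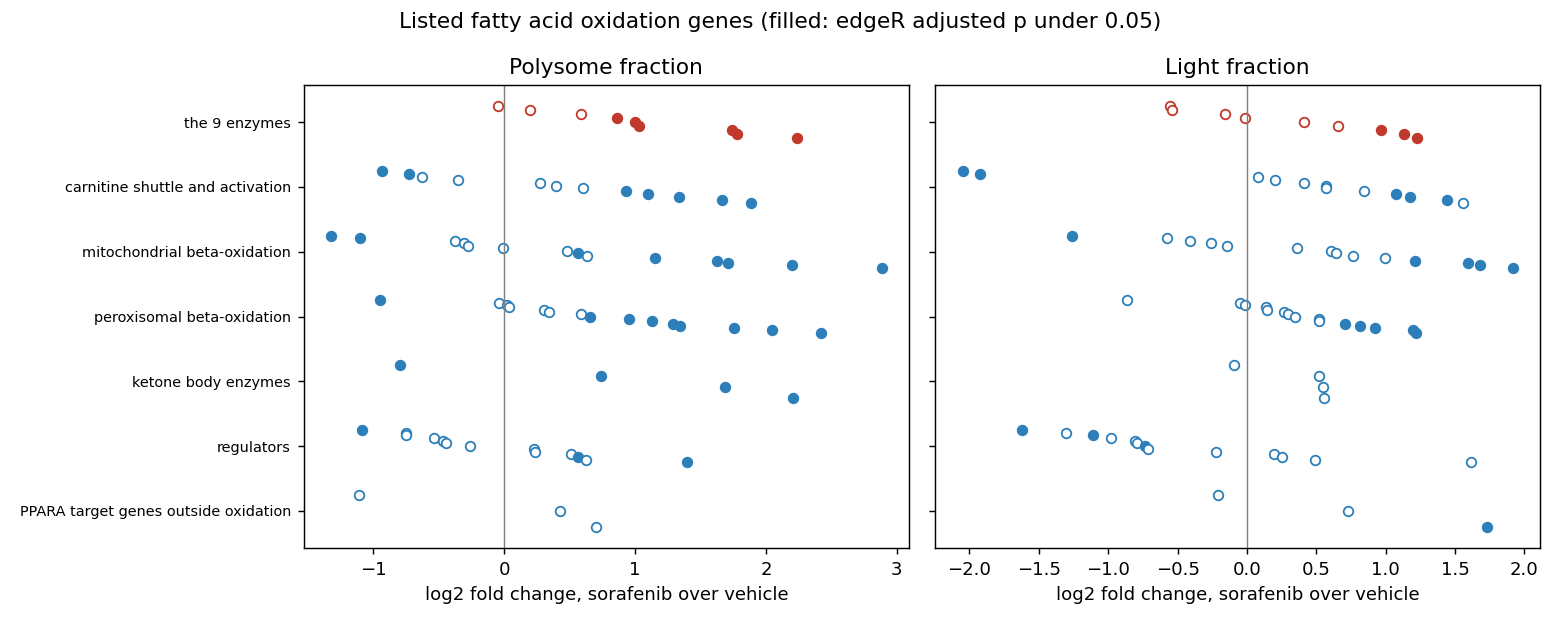
Log2 fold change, sorafenib over vehicle, of the 9 enzymes (red) and of the 61 other tested genes by list (blue), in the polysome pool and the light pool, with filled points where the edgeR adjusted p was under 0.05; height within a row only separates the points. On polysomes 6 of the 9 and 24 of the 61 are filled to the right of 0, and 0 and 7 to the left.

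Likeness of pattern was measured as the root mean square difference between the 4 group means of log2 CPM, each gene centred on its own mean. Within the 9, the closest pairs were CPT1A with ACADM (0.27), CPT2 with HADH (0.27) and ETFA with ETFDH (0.32), and the farthest was HADHA from ETFA (1.18). HADHA was closer to HADH (0.54) than to its partner HADHB, whose own nearest was HADH (0.40). Of the 9, HADH lay closest to the median profile (0.22) and HADHA farthest from it (0.69). Among 8975 other genes whose mean log2 CPM reached 3, those nearest to the median profile were CCT4 (0.0112), a subunit of the cytosolic chaperonin, ALCAM (0.0278), an adhesion molecule, the read-through row ABHD14A-ACY1 (0.0316), FMO5 (0.0415), a flavin monooxygenase, and KRT19 (0.0433), a keratin. The profile has only 4 points per gene, which share the libraries, and the read-through row can share reads with its component genes.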

How the data were processed

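The authors deposited raw, whole-number counts for each gene symbol in 12 libraries. GRCh38.p12 is the build listed, per the submitters' processing notes. The aligner, counter and strand setting were not given in the sources used here.

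From these counts edgeR 4.0.16 in R 4.3.3 was fitted to all 12 libraries. filterByExpr on 4 groups kept 14955 of 57353 rows, and the dropped rows held no more than 4.54% of any library. TMM factors and the quasi-likelihood test without a block were used, with Benjamini-Hochberg adjustment over all genes tested and a threshold of 0.05. SE is the size of the log2 fold change divided by the root of the F statistic. The fit was tested on simulated data. DESeq2 1.42.0 served as an alternative, and matplotlib 3.10.9 drew the figures.

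The 9 members and the lists were chosen with earlier results of these data known. All 9 were named. From each list up to 3 called genes per direction on polysomes, and up to 3 in the light pool, with a mean log2 CPM from 3 up, were named by adjusted p, plus ETFB, CPT1B, CPT1C, PPARA and PPARGC1A. ACOT8 in the light pool was named after its value was seen. Some listed genes that the rule would name are not reported here.

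The labels number the lysates but do not state that they are separate cultures, so p-values measure the spread between these libraries, which may be technical. Libraries of a group differed by more than counting noise (chi-square over its degrees of freedom 8.82 to 46.1). The labels give both pools of a number and treatment 1 name, so the lysate pairs them. Deviations of paired pools correlated at 0.14, -0.07 and 0.33 with vehicle and 0.05, 0.04 and 0.04 with sorafenib. The index in the label of sorafenib polysome library 3 repeats that of vehicle light library 1.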

Additional observations from a re-analysis of the deposited data

Results flagged for a closer look

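For 4 of the 9 mRNAs the sorafenib effect differed between the polysome and the light pool by the interaction test, which called 23.6% of all tested genes. HADHA (2.25), ACADVL (1.93) and ACADM (1.53) had the larger log2 fold change on polysomes, and ETFA (-1.03) the larger one in the light pool (edgeR adjusted p = 2.18e-04, 5.35e-04, 0.0121 and 0.0147). The ETFA call was lost in 8 of 12 refits that left out 1 library and without a low-count filter (-0.47, adjusted p = 0.809). Every sorafenib culture lay on the same side of every vehicle culture in the polysome-to-light ratio of these 4. Those ratios come from the same libraries as the interaction that picked the 4, so they are not separate support. The sorafenib light pool, which enters all 4 differences, holds the 2 shallowest libraries. For HADHA the group that stood apart was vehicle polysome (mean 48.4 CPM), and for ETFA it was vehicle light (85.2 CPM). With all libraries thinned to 511065 counts the 4 calls were kept, at 2.43 for HADHA, 2.11 for ACADVL, 1.90 for ACADM and -1.31 for ETFA (adjusted p = 7.42e-05, 6.92e-04, 0.0263 and 0.0109). Thinning levels the depth only. Without both shallow libraries, which leaves 1 in that group, the ACADM value was 1.10. Sorafenib light-fraction library 2 correlated at 0.82 and 0.80 with the others of its group, which were at 0.93 with each other. The lowest correlation within the other groups was 0.95.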

How the results depend on the processing

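The count of 6 enzymes that rose on polysomes was 5 to 7 without 1 library, 6 or 7 under scaling, filter, tool and block alternatives, and 4 of 7 tested with all libraries thinned to 511065 counts. Light-pool rises numbered 1 without a low-count filter and 2 to 3 without 1 library, and falls 0 to 1. Negative interactions numbered 0 without the filter and 0 to 1 without 1 library. Over all genes 1727 of 7844 rose on polysomes after thinning. Without the filter 1449 of 45832 rose in the light pool and 663 had a negative interaction. With library totals as the scale, 7314 of all 14955 genes were called higher on polysomes in vehicle cells and 5587 in sorafenib cells. In the main fit these were 2742 and 2002. In vehicle cells enzymes higher on polysomes numbered 4 with library totals as the scale. Those lower numbered 1 with library totals and 1 without the filter, and 1 to 2 without 1 library. Over all genes those lower in vehicle cells numbered 876 of 14955 with library totals and 1913 of 45832 without the filter. In sorafenib cells enzymes higher numbered 6 with library totals, 4 without the filter, 1 of 7 tested after thinning, and 1 to 3 without 1 library, and those lower 0 to 1. Over all genes those higher there numbered 4719 of 45832 without the filter and 639 of 7844 after thinning. Without both shallow libraries, which leaves 1 in that group, the median there was 0.36 for the 9 and 0.17 for all genes. Of the 61 other genes, falls on polysomes numbered 4 with TMM within each fraction, 1 without the filter, 4 at the lowest of 11 other TMM references and 3 to 8 without 1 library. In the light pool rises numbered 27 with library totals and 8 without the filter. Falls there numbered 2 with library totals, 3 with only the groups compared, 2 after thinning and 2 to 9 without 1 library. TMM within each fraction was not run between fractions, since its factors share no scale across them.

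For values whose direction turned, the cause was not tested. ETFDH on polysomes was at 0.17 (TMM within each fraction), 0.021 (RLE), 0.090 (library totals), 0.35 (no filter), 0.026 (DESeq2), 0.18 (only the groups compared), 0.22 (without both shallow libraries), 0.20 (highest of the other references) and -0.23 to 0.23 without 1 library. In the light pool HADHA was at 0.063 (TMM within each fraction), 0.046 (RLE), 0.43 (library totals), 0.054 (DESeq2), 0.11 (only the groups compared), 0.49 (without both shallow libraries), 0.040 (thinned), 0.056 and 0.10 (other references) and -0.26 to 0.33 without 1 library. ACADVL there was at 0.29 (library totals), 0.069 (without both shallow libraries) and -0.22 to 0.069 without 1 library, and ACADM at 0.17 without both shallow libraries. The CPT2 interaction was at 0.31 (no filter), 0.72 (without both shallow libraries) and -0.45 to 0.23 without 1 library, and that of ETFDH at 0.055 (no filter) and -0.61 to 0.079. In vehicle cells, polysome minus light with library totals, CPT1A was at 0.31, CPT2 at 0.27, ACADVL at 0.83, ACADM at 0.37, HADHB at 0.58 and HADH at 0.19. ACADVL was at 0.042 without the filter and -0.30 to 0.11 without 1 library. In sorafenib cells CPT1A was at -0.18, HADHA at -0.069 and ETFA at -0.10 after thinning. CPT2 was at 0.13 and HADHA at -0.084 without both shallow libraries, HADH at 0.27 (library totals), 0.30 (no filter) and -0.42 to 0.17 without 1 library, and ETFDH at -0.028 to 0.66.

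With the number shared by vehicle and sorafenib libraries as a replicate block, 7 enzymes rose on polysomes, CPT1A (0.78, adjusted p = 0.0442) being the addition. Of all 14955 genes 3134 rose and 4172 fell in that fit. Whether these numbers pair the cultures is not stated by the labels. Correlations of -0.20 to 0.02 cannot settle it, since the 2 pools of vehicle lysate 2 were themselves at -0.07. With the culture as a replicate block, 4 interactions were positive and 1 negative, against 2215 and 1728 of all 14955 genes. This block changed the call of CPT1A alone among the 9.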
